A study of Mus musculus with 20 samples.

Results

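The layer marker genes *Cux1*, *Cux2*, *Lamp5*, *Rorb*, *Fezf2*, *Bcl11b*, *Foxp2*, *Tle4* and *Tbr1* were examined in the hippocampus and neocortex of WT and miR-324-null mice. They are 9 of the 35580 genes measured, and were chosen by name as genes in common use to mark the layers of the neocortex. The rule names no measured value, but it was set with earlier results of these data known. For each gene the deposited values of all its annotated transcripts were summed. The mice were of the strain C57BL/6J, male and 13.5 months old, and the labels name no agent. The 4 groups, with 5 samples each and 20 in all, were hippocampus and cerebral cortex of wild-type control mice, and the same tissues of miR-324-null mice, in which a CRISPR deletion had removed the *Mir324* locus from every cell. The founders of the line were of mixed background and were backcrossed to C57BL/6J. The question was how the levels of these genes differed between tissues and between genotypes. The sources used here do not say how many mice the samples came from, or whether both tissues of a mouse were used, so p values measure the spread between these samples only.

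The neocortex is built of layers of excitatory neurons that differ in birth date and in where their axons go. Upper-layer neurons connect cortical areas with each other, layer 4 neurons receive input from the thalamus, and deep-layer neurons send axons out of the cortex, to the brainstem and spinal cord from layer 5 and to the thalamus from layer 6. The genes studied here are mostly transcription factors that set or hold these identities, and most of them are also transcribed in other forebrain regions. The libraries were made from blocks of tissue, so no value below resolves a layer, and fewer cells of a type cannot be told apart from less RNA per cell. In GRCm38 the upper-layer genes lie at these places: *Cux1* at chr5:136248135-136567490 (minus strand), *Cux2* at chr5:121856366-122050102 (minus strand) and *Lamp5* at chr2:136052239-136069917 (plus strand). The layer 4 gene is *Rorb* at chr19:18930605-19111196 (minus strand). The deep-layer genes are *Fezf2* at chr14:12342094-12348189 (minus strand), *Bcl11b* at chr12:107910403-108003602 (minus strand), *Foxp2* at chr6:14901349-15441977 (plus strand), *Tle4* at chr19:14448150-14598051 (minus strand) and *Tbr1* at chr2:61802930-61814114 (plus strand).

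Of the libraries, 3 held far more RNA of choroid plexus genes than the others. The summed TPM (a level scaled to transcript length and library size) of 6 choroid plexus genes was 6940 in WT hippocampus replicate 3, 6002 in miR-324-null hippocampus replicate 5 and 1284 in miR-324-null neocortex replicate 2. Neocortical miR-324-null replicate 5 stood apart from the other 4 libraries of its group in *Bcl11b* and *Tbr1* and in genes of the hippocampal fields, as described below. The tissue labels were checked on 10 hippocampal field genes, whose summed TPM was 234 to 316 in WT and 200.4 to 290.0 in miR-324-null hippocampus, against 55.7 to 69.2 and 56.6 to 122 in the neocortex. All 10 were called lower in the neocortex in WT mice and 8 of 10 in miR-324-null mice. Not all of them set the tissues apart: the medians of *Wfs1* and *Plk5*, named after their values were seen, were 45.9 and 15.6 TPM in miR-324-null hippocampus and 61.7 and 16.7 TPM in miR-324-null neocortex. The deleted gene itself was not analysed here, so it gives no check of the genotype labels. Of the 9 genes, 8 had at least 246 estimated counts in every library. *Foxp2*, the lowest, had fewer, with 31 to 139 in hippocampal libraries.

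Levels of different genes were compared in TPM only. *Lamp5* had the highest level of the 9 in each group, with 51.9 ± 7.60 TPM in WT hippocampus and 314 ± 16.9 TPM in WT neocortex (SD, n = 5), and its lowest library lay above every library of the gene next in order. In WT neocortex it was followed by *Tbr1* (64.6 ± 8.85 TPM), *Cux2* (54.3 ± 7.75 TPM), *Cux1* (43.5 ± 6.18 TPM), *Fezf2* (27.1 ± 6.31 TPM) and *Tle4* (21.5 ± 2.79 TPM), each overlapping the next. *Bcl11b* (11.9 ± 0.662 TPM), *Rorb* (9.70 ± 1.28 TPM) and *Foxp2* (5.89 ± 1.13 TPM) closed the order without overlap. In WT hippocampus *Bcl11b* came after *Lamp5* with 28.7 ± 2.66 TPM, and the ranges of *Bcl11b*, *Fezf2*, *Cux1*, *Tbr1*, *Tle4* and *Cux2* each overlapped the next in that order. *Rorb* (3.74 ± 0.328 TPM) and *Foxp2* (2.21 ± 0.877 TPM) were again the lowest pair.

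Between tissues, most of the layer markers stood higher in the neocortex, with one deep-layer gene going the other way. In WT mice 6 of the 9 were higher in the neocortex by edgeR's quasi-likelihood test at an adjusted p of at most 0.05, 1 was lower and 2 were not called, where 36.1% of all 14894 genes tested were called, 18% higher and 18.1% lower. In miR-324-null mice the counts were again 6, 1 and 2 and the called genes were the same, where 27.4% of 15033 genes were called, 13.6% higher and 13.8% lower. The median log2 fold change of the 9 was 1.35 in WT and 1.15 in miR-324-null mice, while that of all genes tested was below 0.01 in size in both. For 7 of the 9 genes the 5 neocortical and 5 hippocampal libraries did not overlap in CPM (counts scaled to library size) in either genotype, against 26.5% of all genes tested in WT and 21.1% in miR-324-null mice.

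**Figure D1:**
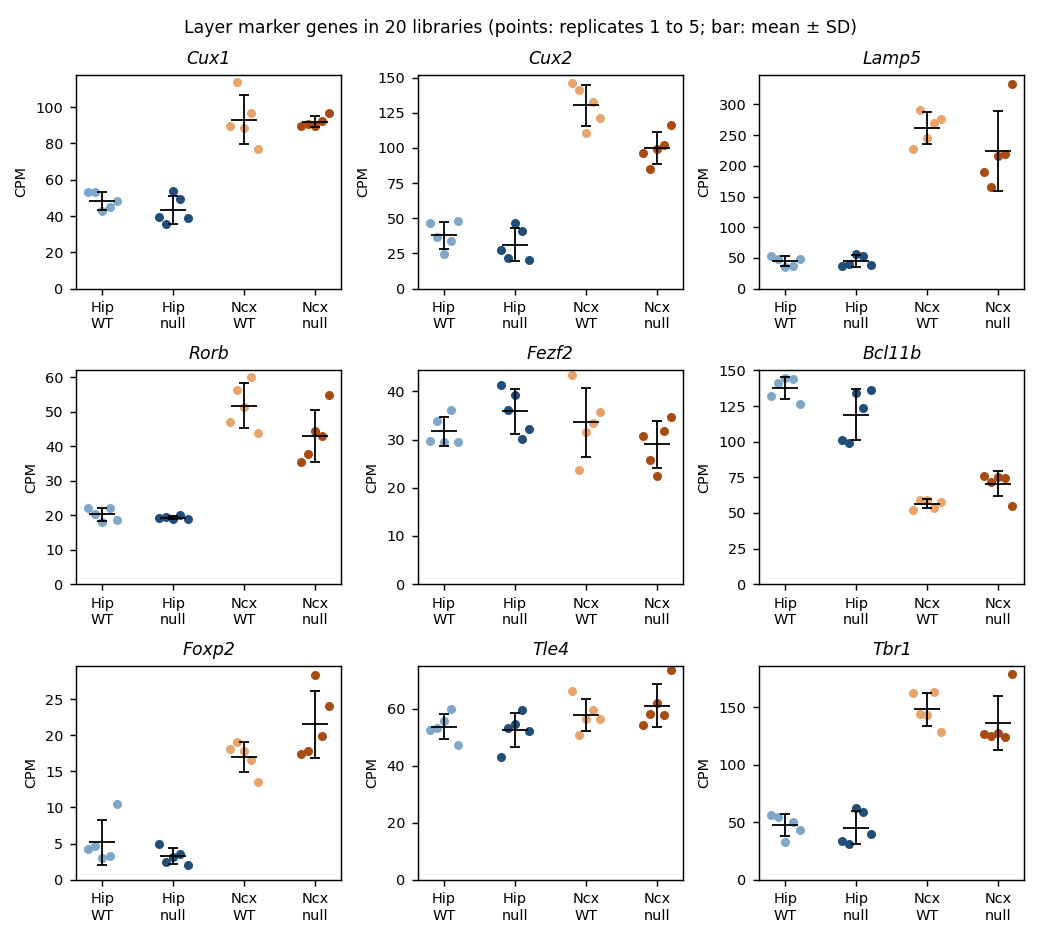
Level of each layer marker gene in CPM (y axis, from 0) in the 20 libraries, by hippocampus (Hip) and neocortex (Ncx) of WT and miR-324-null mice. Points are replicates 1 to 5 from left to right, and bars are the mean ± SD; the tissues separate in every panel but those of *Fezf2* and *Tle4*, and neocortical levels of *Bcl11b* are the lower ones.

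Of the upper-layer genes *Lamp5* had the largest log2 fold change. It encodes a brain-specific member of the lysosome-associated membrane proteins and is also made by a class of interneurons. In WT mice *Lamp5* was at 53.5, 48.6, 35.3, 36.4 and 48.6 CPM in hippocampal replicates 1 to 5 and at 227, 292, 246, 269 and 276 CPM in the neocortical ones. The neocortical mean was 5.88 times the hippocampal one (log2 fold change 2.56, SE 0.11, edgeR adjusted p = 3.35e-09). In miR-324-null mice the libraries held 36.4, 40.02, 56.4, 53.2 and 38.2 CPM in the hippocampus and 189, 166, 216, 218 and 334 CPM in the neocortex, a ratio of 4.97 (log2 fold change 2.31, SE 0.19, edgeR adjusted p = 4.19e-06). Every neocortical library was far above every hippocampal one, and neocortical miR-324-null replicate 5 was the highest of the 20.

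*Cux2*, a homeodomain factor of upper-layer neurons, stood at 46.5, 36.3, 24.7, 33.5 and 48.4 CPM in WT hippocampus and at 146, 141, 111, 133 and 121 CPM in WT neocortex, 3.44 times as high (log2 fold change 1.78, SE 0.15, edgeR adjusted p = 8.39e-07). Its miR-324-null libraries held 27.2, 21.4, 46.8, 40.8 and 20.5 CPM in the hippocampus and 96.2, 85.05, 99.2, 102 and 116 CPM in the neocortex, 3.16 times as high (log2 fold change 1.66, SE 0.20, edgeR adjusted p = 7.52e-05). The groups of both genotypes were separate, but hippocampal libraries spread widely: WT replicate 3 and miR-324-null replicates 1, 2 and 5 had the lowest levels. Its relative *Cux1* differed less. *Cux1* was at 42.7 to 53.3 CPM in WT hippocampus and 76.7 to 114 CPM in WT neocortex (log2 fold change 0.94, SE 0.097, edgeR adjusted p = 5.70e-06), and at 35.7 to 53.5 and 89.7 to 96.8 CPM in miR-324-null mice (log2 fold change 1.07, SE 0.099, edgeR adjusted p = 9.10e-06).

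The layer 4 gene *Rorb* encodes an orphan nuclear receptor. It was at 22.00, 20.4, 18.1, 22.2 and 18.6 CPM in WT hippocampus and at 46.9, 56.2, 51.5, 59.9 and 43.9 CPM in WT neocortex, a ratio of 2.55 (log2 fold change 1.35, SE 0.091, edgeR adjusted p = 1.30e-07). In miR-324-null mice it was at 19.2, 19.4, 18.8, 20.1 and 18.9 CPM and at 35.5, 37.6, 44.3, 42.9 and 54.7 CPM, a ratio of 2.22 (log2 fold change 1.15, SE 0.10, edgeR adjusted p = 8.38e-06). The lowest neocortical library, miR-324-null replicate 1, still exceeded every hippocampal one.

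The 5 deep-layer genes split. *Tbr1*, a T-box factor of layer 6 and of other early-born excitatory neurons, was at 56.3, 54.1, 32.5, 50.4 and 43.4 CPM in WT hippocampus and 162, 144, 144, 163 and 128 CPM in WT neocortex (log2 fold change 1.64, SE 0.12, edgeR adjusted p = 3.40e-07). In miR-324-null mice it was at 33.8, 31.1, 62.3, 58.6 and 39.9 and 127, 125, 127, 124 and 179 CPM (log2 fold change 1.58, SE 0.19, edgeR adjusted p = 5.94e-05). Hippocampal libraries with little *Cux2* were also those with little *Tbr1*. *Foxp2*, a forkhead factor of layer 6 that is also made by striatal projection neurons and thalamic neurons, was the lowest of the 9 and was at 4.30, 4.65, 2.99, 3.31 and 10.5 CPM in WT hippocampus and 18.1, 19.03, 17.8, 16.5 and 13.5 CPM in WT neocortex (log2 fold change 1.73, SE 0.26, edgeR adjusted p = 1.72e-04). WT hippocampal replicate 5, at 10.5 CPM against 2.99 to 4.65 CPM in the 4 others, stood apart, and without it the log2 fold change was 2.14 (edgeR adjusted p = 3.81e-07). That library also had the highest summed TPM of 6 thalamic genes among the 20, 80.3 against 27.1 to 63.6 in the others, and the part of such cells in its *Foxp2* level was not tested. In miR-324-null mice the hippocampal libraries had *Foxp2* at 4.92, 2.45, 3.20, 3.50 and 2.09 CPM and the neocortical ones at 17.4, 17.9, 28.3, 19.8 and 24.1 CPM (log2 fold change 2.73, SE 0.21, edgeR adjusted p = 2.90e-06). When the mean length of its transcripts entered the fit as an offset, the log2 fold change fell from 2.73 to 1.56 (edgeR adjusted p = 0.00868).

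*Bcl11b* was the one gene called lower in the neocortex. Its zinc finger protein, also called CTIP2, directs the axons of layer 5 neurons and is made as well by hippocampal pyramidal and granule neurons and by striatal projection neurons. *Bcl11b* was at 132, 141, 145, 144 and 127 CPM in WT hippocampus and at 52.4, 59.1, 59.2, 53.4 and 57.5 CPM in WT neocortex, where it was 2.44 times lower (log2 fold change -1.29, SE 0.053, edgeR adjusted p = 1.80e-09). In miR-324-null mice it was at 101, 98.9, 134, 124 and 136 and at 76.1, 71.6, 75.5, 74.8 and 54.8 CPM, 1.70 times lower (log2 fold change -0.76, SE 0.11, edgeR adjusted p = 3.02e-04). No neocortical library reached the lowest hippocampal one in either genotype.

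*Fezf2* and *Tle4* were not called in either genotype. *Fezf2*, the zinc finger factor that specifies layer 5 neurons projecting below the cortex, was at 29.7, 33.9, 29.5, 36.05 and 29.5 CPM in WT hippocampus and at 43.4, 23.6, 31.6, 33.5 and 35.7 CPM in WT neocortex. The groups overlapped in WT (log2 fold change 0.083, SE 0.13, edgeR adjusted p = 0.66), and the interval of 2 SE either side ran from -0.17 to 0.34. In miR-324-null mice it was at 41.4, 36.2, 39.3, 30.2 and 32.2 CPM and at 30.7, 25.7, 22.4, 31.7 and 34.6 CPM, with the neocortical mean the lower one (log2 fold change -0.31, SE 0.12, edgeR adjusted p = 0.0751). That difference passed the threshold without hippocampal miR-324-null replicate 4 (edgeR adjusted p = 0.0481) or without neocortical miR-324-null replicate 5 (0.0346). *Tle4*, a Groucho-type corepressor of corticothalamic neurons in layer 6, was at 47.5 to 59.9 CPM in WT hippocampus and 50.9 to 66.5 CPM in WT neocortex (log2 fold change 0.11, SE 0.074, edgeR adjusted p = 0.301), and at 43.00 to 59.7 and 54.2 to 73.7 CPM in miR-324-null mice (log2 fold change 0.21, SE 0.096, edgeR adjusted p = 0.126).

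**Figure D2:**
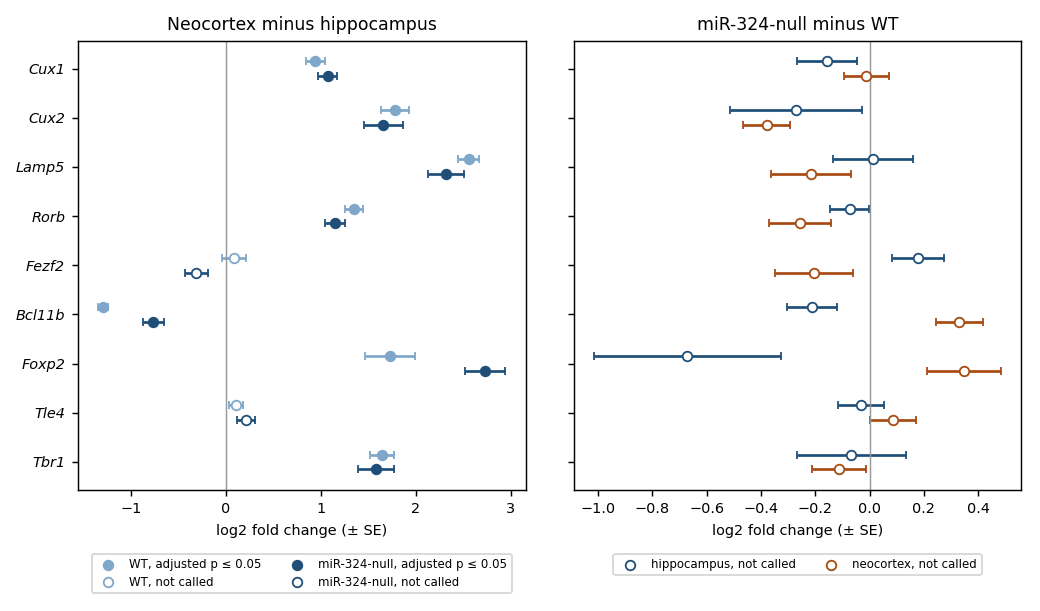
Log2 fold change of each layer marker gene with its SE, between tissues (left, positive is higher in the neocortex) and between genotypes (right, positive is higher in miR-324-null mice), from edgeR. Filled points passed an adjusted p of 0.05: 7 of 9 in each tissue comparison and none in the genotype comparisons.

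A list of 36 other genes used as layer markers went both ways between tissues. Of these, 35 were matched by symbol and 34 were tested. In WT mice 17 were higher in the neocortex, 12 were lower and 5 were not called, with a median log2 fold change of 0.45. In miR-324-null mice the counts were 16, 12 and 6, with a median of 0.27. Among the 11 upper-layer genes 6 were higher and 5 lower in WT mice, among the 4 of layer 4 the counts were 2 and 2, among the 8 of layer 5 they were 3 and 3, and among the 11 tested of layer 6 they were 6 and 2. The share called, 29 of 34 in WT mice, stood beside 36.1% of all genes. The largest rises from hippocampus to neocortex in WT mice were those of *Rspo1*, a secreted activator of Wnt signalling, from 1.04 ± 0.398 to 16.4 ± 2.64 CPM (log2 fold change 3.95, SE 0.20, edgeR adjusted p = 1.18e-08), and *Oprk1*, the kappa opioid receptor, from 1.02 ± 0.226 to 5.94 ± 3.06 CPM (log2 fold change 2.54, SE 0.37, edgeR adjusted p = 1.23e-04). The largest falls were those of *Mdga1*, a membrane-anchored adhesion protein of upper-layer neurons, from 82.8 ± 3.60 to 13.1 ± 1.38 CPM (log2 fold change -2.66, SE 0.067, edgeR adjusted p = 3.50e-11), and *Crym*, a thyroid hormone binding protein, from 142 ± 27.7 to 33.8 ± 7.02 CPM (log2 fold change -2.07, SE 0.15, edgeR adjusted p = 2.47e-07). The same 4 genes led in miR-324-null mice, where *Rspo1* went from 0.926 ± 0.227 to 11.7 ± 3.65 CPM (log2 fold change 3.64, SE 0.24, edgeR adjusted p = 1.11e-06) and *Oprk1* went from 2.16 ± 1.06 to 10.99 ± 1.64 CPM (log2 fold change 2.35, SE 0.24, edgeR adjusted p = 2.14e-05). *Crym* there went from 210.5 ± 81.2 to 47.9 ± 10.3 CPM (log2 fold change -2.14, SE 0.24, edgeR adjusted p = 4.06e-05) and *Mdga1* went from 71.99 ± 2.78 to 22.3 ± 3.21 CPM (log2 fold change -1.70, SE 0.091, edgeR adjusted p = 4.17e-07).

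**Figure D3:**
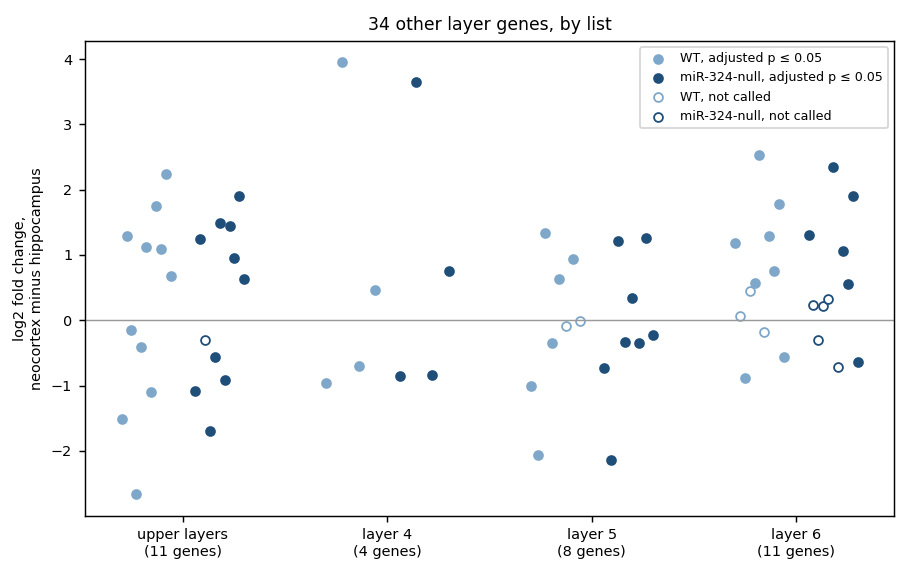
Log2 fold change between neocortex and hippocampus (y axis, positive is higher in the neocortex) of the 34 other layer genes tested, by list, in WT (light) and miR-324-null mice (dark). Each point is a gene and filled points passed an adjusted p of 0.05 in edgeR; every list holds genes on both sides of 0.

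Between genotypes the deleted locus encodes miR-324-5p and miR-324-3p, which guide repression of mRNAs whose 3′UTR pairs with their seed, bases 2 to 8. The mature sequences, from RefSeq on GRCm38.p6, are shown with the seed in capitals, so that the matches among the layer markers can be read against them. They lie at chr11:70012060-70012082 and chr11:70012095-70012114 on the plus strand.
mmu-miR-324-5p: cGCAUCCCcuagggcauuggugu
mmu-miR-324-3p: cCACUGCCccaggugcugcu
The match to the first seed is GGGATGC and to the second GGCAGTG, both searched on the sense strand of the annotated 3′UTRs. Of 14793 genes tested with a 3′UTR, 10.9% held the first motif and 19.6% the second. *Rorb* was the one layer marker of the 9 with the first, at a pair of places in its 3′UTR of 7275 bases on chromosome 19, minus strand of GRCm38 (chr19:18934908-18934914 and chr19:18933159-18933165). *Cux1* was the one with the second, found at 3 places over 7 of its transcripts with 1 of them in the 3′UTR of 8376 bases of the full-length Cux1-201 (chr5:136274672-136274678, minus strand). The *Rorb* sites and that of Cux1-201 follow in their mRNA sense with the motif in capitals.
Rorb site 1: tctgctcaGGGATGCttcattta
Rorb site 2: gtgacactGGGATGCtggcgcac
Cux1-201 site: tcagcaccGGCAGTGtgggctgg
A match describes these letters and not a target. The gene-level log2 fold change of *Rorb* was -0.074 in hippocampal and -0.26 in neocortical samples, and that of *Cux1* was -0.16 and -0.011. Neither gene mean was higher in miR-324-null mice. Most of the *Cux1* TPM lay on Cux1-205, Cux1-207 and Cux1-211, which hold no match. From WT to miR-324-null mice Cux1-201 went from 1.73 to 1.59 TPM in the hippocampus and from 4.18 to 4.48 TPM in the neocortex (means).

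No layer marker was called between genotypes by edgeR. In the hippocampus 0 of 9 passed, where 0.115% of 14796 genes were called. At an unadjusted p under 0.05 there was 1 of 9, beside 1635 of the 14796 genes, and DESeq2 called 0 of 9, beside 139 genes. In the neocortex 0 of 9 passed, where 0.315% of 14930 genes were called. At an unadjusted p under 0.05 there were 4 of 9, beside 1822 of the 14930 genes, and DESeq2 called 2 of 9, beside 240 genes. For none of the 9 were the genotypes apart in all libraries, in either tissue, against 2.55% of all genes for hippocampal and 2.3% for neocortical samples. The test of the difference between the genotype effects of both tissues called 0 of 9, where 0.0195% of 15391 genes were called. At an unadjusted p under 0.05 there were 2 of 9, beside 857 of the 15391 genes, and DESeq2 called 0 of 9, beside 6 genes.

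In the hippocampus no difference passed the threshold. *Bcl11b* had an unadjusted p of 0.0382, with a mean of 138 ± 7.90 CPM in WT libraries against 119 ± 17.8 CPM in those of miR-324-null mice (SD, n = 5; log2 fold change -0.21, SE 0.091, edgeR adjusted p = 0.42). The low libraries were miR-324-null replicates 1 and 2, which with replicate 5 were also low in *Cux2* and *Tbr1*. *Foxp2* had the widest difference (log2 fold change -0.67, SE 0.34, edgeR adjusted p = 0.493), which went to -0.24 without WT replicate 5 and turned to 0.15 with the transcript-length offset (edgeR adjusted p = 0.952). *Lamp5* (0.012), *Tle4* (-0.032) and *Tbr1* (-0.067) lay near 0 on the log2 scale, with intervals of 2 SE either side from -0.29 to 0.31, -0.20 to 0.14 and -0.47 to 0.34.

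In the neocortex *Cux2* and *Bcl11b* came closest to a call. The WT libraries had *Cux2* at 146, 141, 111, 133 and 121 CPM, and the miR-324-null libraries at 96.2, 85.05, 99.2, 102 and 116 CPM, a mean 1.30 times lower (log2 fold change -0.38, SE 0.086, edgeR adjusted p = 0.105). Of the miR-324-null libraries, replicate 5 alone reached into the WT range. The WT libraries had *Bcl11b* at 52.4, 59.1, 59.2, 53.4 and 57.5 CPM, and the miR-324-null libraries at 76.1, 71.6, 75.5, 74.8 and 54.8 CPM, 1.26 times higher (log2 fold change 0.33, SE 0.086, edgeR adjusted p = 0.152). Here miR-324-null replicates 1 to 4 lay above all WT libraries, and replicate 5 lay among them. DESeq2 called both genes, with an adjusted p of 0.00565 for *Cux2* and 0.0307 for *Bcl11b*. Without replicate 5 edgeR called 3 of the 9, *Bcl11b* (0.41, adjusted p = 0.00173), *Cux2* (-0.44, adjusted p = 0.0132) and *Lamp5* (-0.40, adjusted p = 0.0313), while the genes called in all rose from 47 to 566. *Bcl11b* then also passed the test of the difference between the genotype effects of both tissues, at 0.62 (edgeR adjusted p = 0.0307), where 20 of 15514 genes were called. With all libraries it was at 0.53 (edgeR adjusted p = 0.454). Replicate 5 was the miR-324-null library that lay against these differences, so leaving it out favours these calls and they are no separate support.

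The 7 other layer markers had neocortical genotype differences of 0.35 (*Foxp2*), -0.26 (*Rorb*), -0.22 (*Lamp5*), -0.20 (*Fezf2*), -0.11 (*Tbr1*), 0.087 (*Tle4*) and -0.011 (*Cux1*) on the log2 scale, with edgeR adjusted p from 0.324 up. Of the 34 other layer genes tested, 0 were called between genotypes in the hippocampus and 1 in the neocortex, *Mdga1*, named here after its values were seen. *Mdga1* went from 13.1 ± 1.38 to 22.3 ± 3.21 CPM in the neocortex (log2 fold change 0.78, SE 0.11, edgeR adjusted p = 0.00717). It also passed the test of the difference between the genotype effects of both tissues (0.97, edgeR adjusted p = 6.87e-04). In WT hippocampus *Mdga1* was at 82.8 ± 3.60 CPM, far above its neocortical level. Genes of the hippocampal fields were also higher in most miR-324-null neocortical libraries, as described below, and their part in the *Mdga1* difference was not tested.

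Genes of neighbouring regions were high in some of the same libraries. The summed TPM of the 10 hippocampal field genes was 68.4, 69.2, 68.9, 55.7 and 63.3 in WT neocortex and 122, 91.9, 106, 110.3 and 56.6 in miR-324-null neocortex, so that miR-324-null replicates 1 to 4, the libraries high in *Bcl11b*, lay above all WT libraries and replicate 5 did not. A large part of the sum was *Wfs1*, with a median of 37.9 TPM in WT and 61.7 TPM in miR-324-null neocortex. None of the 8 list genes tested was called between genotypes in the neocortex, and their median log2 fold change was 0.88. With the log2 of this sum as a covariate, an alternative added after the data were seen, the genotype difference of *Bcl11b* was 0.080 (edgeR adjusted p = 0.868), that of *Cux2* was -0.28 (adjusted p = 0.627), and those of *Cux1*, *Lamp5* and *Tbr1* turned to 0.016, 0.099 and 0.12. Since the sum and the genotype nearly coincide, they cannot be told apart. The summed TPM of 16 genes of striatal projection neurons was 276, 651, 408, 325 and 302 in WT and 605, 508, 1167, 782 and 446 in miR-324-null neocortex, with overlap, against 209 to 257 in WT hippocampus. None of the 15 tested was called between genotypes, with a median log2 fold change of 1.03, and *Isl1*, a defining factor of striatal neurons, was at 0 to 0.698 TPM in WT and 0.559 to 5.55 TPM in miR-324-null neocortex. Between tissues 4 of 13 tested were called higher in the neocortex in WT mice (median 0.62), beside 18% of all genes. In miR-324-null mice 14 of 14 were (median 2.05), beside 13.6% of all genes. The part of either list in the layer marker levels was not tested beyond the covariate fits and, for the striatal sum, the correlations given below. With that sum as a covariate *Bcl11b* went to 0.18, *Foxp2* from 0.35 to 0.14, and *Fezf2* from -0.20 to 0.17 (edgeR adjusted p from 0.762 to 0.897).

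**Figure D4:**
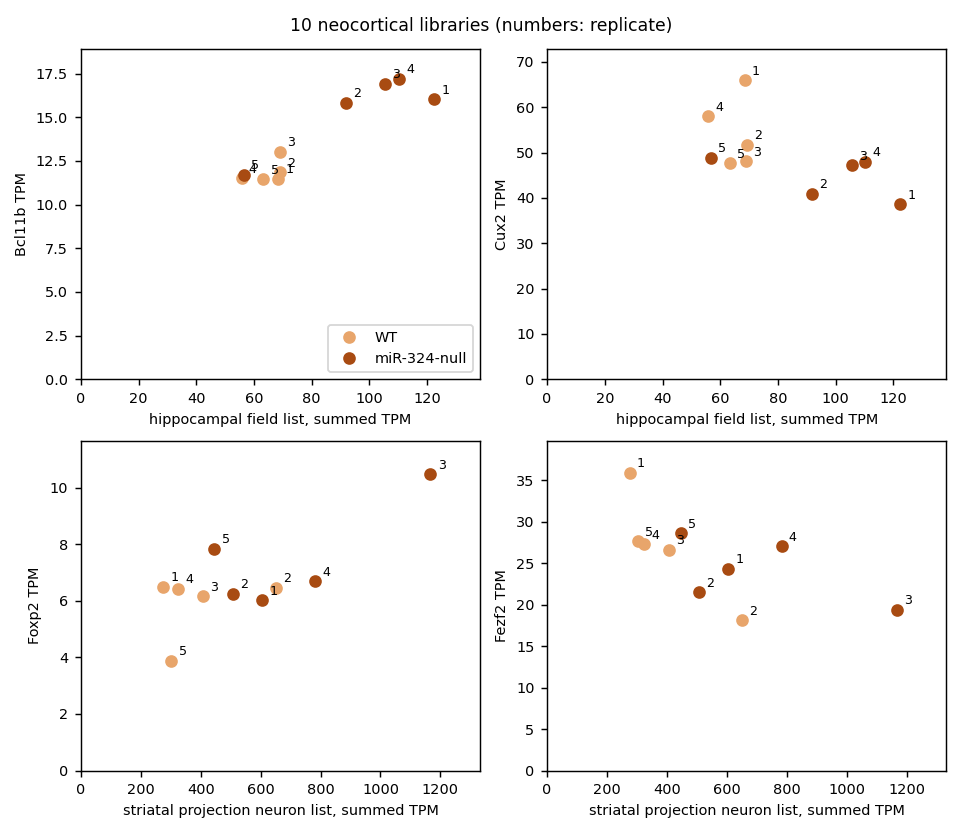
Levels in TPM of *Bcl11b* and *Cux2* against the summed TPM of 10 hippocampal field genes, and of *Foxp2* and *Fezf2* against that of 16 striatal genes, in the 10 neocortical libraries; numbers are replicates. In miR-324-null replicates 1 to 4 the hippocampal sum is 91.9 to 122 and *Bcl11b* 15.8 to 17.2 TPM, while replicate 5, at 56.6 and 11.7, lies with the WT libraries.

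Over the 10 neocortical libraries, log2(TPM + 0.1) of each gene was set against the log2 of the striatal sum, and 0 of 9 relations passed at an adjusted p of 0.05 by Pearson's r (permutation test with 100000 resamples, two-sided, adjusted over the 9). By Spearman's rho 1 passed, *Bcl11b*, in the positive direction (adjusted permutation p = 0.0156). Its libraries fell into separate clusters, miR-324-null replicates 1 to 4 and the rest, so no pooled coefficient is given for it. For *Fezf2* the coefficients were negative (r = -0.73, permutation p = 0.0168, adjusted 0.0756; rho = -0.76, permutation p = 0.0145, adjusted 0.0653), and without the 2 libraries farthest from the median r was -0.48. For *Foxp2* r was 0.65 (permutation p = 0.0420, adjusted 0.126) and rho 0.44 (permutation p = 0.203, adjusted 0.457), and r was 0.49 without the 2 farthest libraries. The 6 genes not named here had an adjusted p of at least 0.344 by r. No coefficient was computed within the genotypes, which held 5 libraries each, and both relations run partly along the genotype.

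The annotated transcripts of the layer markers were compared as shares of their gene. Of the transcripts tested, 25 in each tissue comparison, 20 between genotypes in the hippocampus and 27 in the neocortex, edgeR's diffSpliceDGE called 0 at an adjusted p of 0.05, where 0.139%, 0.164%, 0.0282% and 0.0724% of all transcripts were called. Over these 97 tests 4 had an unadjusted p under 0.05 by diffSpliceDGE. An exact permutation test of the TPM share, two-sided, gave an unadjusted p under 0.05 in 13. How many of all transcripts would pass so was not counted, and shares within a gene depend on each other, so neither count can be read as an excess. For *Cux1* most of the TPM lay on 3 short transcripts, Cux1-205, Cux1-207 and Cux1-211, that end at a separate 3′ end on chromosome 5, 136248135 in GRCm38. The locus is known to encode, besides the homeodomain factor, the Golgi protein CASP, which shares its first exons and lacks the DNA-binding part. These 3 transcripts held 85.1% ± 2.93 of the *Cux1* TPM in WT hippocampus and 84.8% ± 4.11 in WT neocortex (SD, n = 5; exact permutation test, two-sided, p = 0.873). In miR-324-null mice they held 86.7% ± 2.80 and 82.8% ± 2.71 (exact permutation test, two-sided, p = 0.0714). The full-length Cux1-201, of 12862 bases, stood at 1.73 ± 0.217 TPM in WT hippocampus and 4.18 ± 0.680 TPM in WT neocortex, and at 1.59 ± 0.275 and 4.48 ± 0.380 TPM in miR-324-null mice. Its share of the *Cux1* TPM was 7.14% ± 0.525 in hippocampus and 9.65% ± 1.04 in neocortex of WT mice, and 7.21% ± 0.354 and 10.3% ± 0.569 in miR-324-null mice (exact permutation test, two-sided, unadjusted p = 0.00794 in both genotypes, the smallest possible here; diffSpliceDGE adjusted p = 1). It held 28.4% of the estimated counts of the gene in WT hippocampus and 35.2% in WT neocortex, while the 3 short transcripts held 68.5% and 62.1%. The gene level of *Cux1* therefore sums transcripts with different ends.

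For *Cux2* the coding Cux2-202 held 34.4% ± 3.24 of the TPM in WT neocortex and 29.98% ± 3.17 in WT hippocampus, and a short transcript with a retained intron, Cux2-211, held 50.96% ± 3.76 and 47.8% ± 7.55. Cux2-211 went to 44.5% ± 1.93 in miR-324-null neocortex (exact permutation test, two-sided, unadjusted p = 0.0317; not called by diffSpliceDGE, adjusted p = 1). *Lamp5* was divided between the coding Lamp5-201, with 35.4% ± 1.96 in WT neocortex, and the noncoding Lamp5-202, with 58.7% ± 3.10. *Bcl11b*, *Tbr1* and *Fezf2* were carried by 1 coding transcript each, Bcl11b-201 with 95.2% ± 1.30, Tbr1-201 with 98.03% ± 1.86 and Fezf2-201 with 86.6% ± 2.46 in WT neocortex. *Rorb* was divided between Rorb-201 (75.1% ± 8.04) and Rorb-203 (23.5% ± 7.83), and *Tle4* between Tle4-201 (80.2% ± 8.85) and Tle4-202 (19.8% ± 8.85), pairs that share most of their sequence, between which the counting can shift reads.

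In *Foxp2* the mean shares differed between tissues. The coding Foxp2-201 held 13.04% ± 9.20 of the TPM in WT hippocampus and 40.5% ± 3.69 in WT neocortex, and 14.2% ± 11.00 and 45.6% ± 7.10 in miR-324-null mice (exact permutation test, two-sided, unadjusted p = 0.00794 in both genotypes, the smallest that 5 against 5 allows). On counts diffSpliceDGE called neither (adjusted p = 1). Its log2 change relative to the gene was 1.41 in WT mice (diffSpliceDGE unadjusted p = 0.0163) and 0.56 in miR-324-null mice (unadjusted p = 0.321). The other long coding transcript, Foxp2-207, held 31.2% ± 18.2 and 31.7% ± 5.62 in WT mice, and 13.9% ± 11.2 and 30.3% ± 7.71 in miR-324-null mice. The noncoding Foxp2-220 went the other way, from 31.1% ± 11.7 to 13.7% ± 2.79 in WT mice. These shares in the hippocampus rested on few counts, a mean of 13.1 for Foxp2-201 and 15.0 for Foxp2-220 in WT samples. Foxp2-216, with 352 bases, held 35.9% ± 22.9 of the TPM in miR-324-null hippocampus on a mean of 1.52 counts, which leaves smaller TPM shares to Foxp2-201 and the other transcripts there. The part of these shares in the change of sign with the length offset was not tested.

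**Figure D5:**
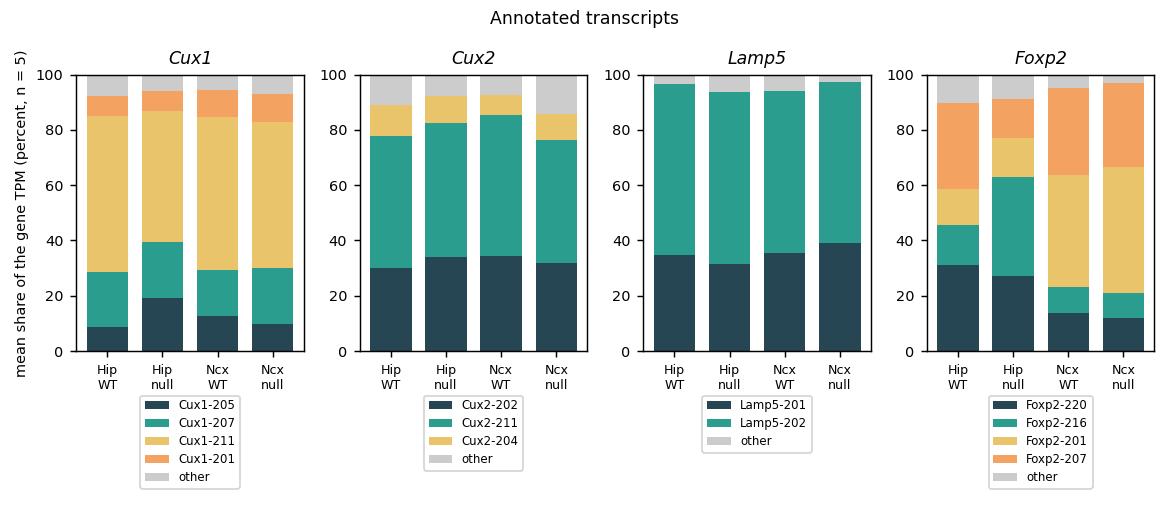
Mean share of the gene's TPM (y axis, percent, n = 5) held by the annotated transcripts of *Cux1*, *Cux2*, *Lamp5* and *Foxp2* (stacked colours, grey for all others) with at least 10% in a group, by hippocampus (Hip) and neocortex (Ncx) and genotype. Foxp2-201 fills a mean of 13.04% and 14.2% in the hippocampal groups and 40.5% and 45.6% in the neocortical ones.

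Genes with the most similar pattern over the 20 libraries were found by Pearson's r of log2 CPM, as a description with no test. Since the libraries fall into 2 tissues, values within tissues (10 libraries each) are given for the nearest gene. *Cux2* was nearest to *Rgs6* (r = 0.989), *Cobl* (0.986) and *Cckbr* (0.986), and *Cux1* to *Rgs6* (0.984), *Cobl* (0.979) and *Sorcs1* (0.979). *Lamp5* was nearest to *Arpp19* (0.995), *Ngef* (0.992) and *Osbpl1a* (0.991), *Rorb* to *Tmem132d* (0.984), *Pdp1* (0.982) and *Ngef* (0.981), and *Tbr1* to *Dlg1* (0.993), *Cacnb4* (0.991) and *Mef2c* (0.991). *Foxp2* was nearest to *Hs3st5* (0.976), *Kcnt1* (0.970) and *Nrg1* (0.965), and *Bcl11b* to *Cacna1h* (0.984), *Zbtb20* (0.979) and *Scn3b* (0.977), of which *Zbtb20* is one of the 10 hippocampal field genes. For *Fezf2* and *Tle4*, which did not differ by a call between tissues, the nearest genes were less alike, *Galnt9* (0.753), *Aasdhppt* (0.750) and *Parm1* (0.732) for *Fezf2* and *Pafah1b1* (0.871), *Azin1* (0.857) and *Dirc2* (0.847) for *Tle4*. Within tissues, r of *Cux1* with *Rgs6* was 0.968 among hippocampal and 0.414 among neocortical libraries, that of *Rorb* with *Tmem132d* was 0.580 and 0.945, and that of *Bcl11b* with *Cacna1h* was 0.829 and 0.925. For *Cux2* with *Rgs6* these were 0.950 and 0.882, for *Lamp5* with *Arpp19* 0.851 and 0.922, and for *Tbr1* with *Dlg1* 0.982 and 0.775. For *Foxp2* with *Hs3st5* they were 0.857 and 0.580, for *Fezf2* with *Galnt9* 0.642 and 0.766, and for *Tle4* with *Pafah1b1* 0.874 and 0.861.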

How the data were processed

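Stranded mRNA libraries of 20 samples were read by the authors with kallisto against an Ensembl mouse transcriptome of GRCm38 (the submitters' processing notes, which also list DESeq2, name GRCh38; versions and strand use are not given in the sources used here). Per the file headers, the deposited values are estimated counts, TPM and effective lengths of 115270 transcripts, of which 113580 were matched by identifier to GENCODE annotation of GRCm38. Counts of the transcripts of a gene were added and rounded. Library totals lay between 12752439 and 19617765. In the neocortex they lay between 14238291 and 15071527 in WT and between 13691038 and 19617765 in miR-324-null libraries. Depth bears on counting error and on which genes pass the count filters.

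Each comparison of 2 groups was fitted on its own with edgeR 4.0.16 (R 4.3.3, limma 3.58.1): filterByExpr, TMM, quasi-likelihood test, Benjamini-Hochberg adjustment over all genes tested, threshold 0.05. The difference of genotype effects was fitted on all 20 samples, taken as independent. Transcript usage was tested with diffSpliceDGE. CPM are TMM-normalized. Permutation tests used Python 3.11.15, numpy 2.4.6 and scipy 1.17.1. The main edgeR fit and the DESeq2 fit of each comparison were run on simulated counts, as was diffSpliceDGE for the tissue comparison in WT mice. The other alternatives, and diffSpliceDGE in the other comparisons, were not.

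The members and lists were chosen with earlier results of these data known. Genes named were the 9 layer markers, in each tissue comparison the 2 largest rises and falls past the threshold among the other layer genes, the 3 genes most like each layer marker, and transcripts with at least 10% of the gene TPM in a group. *Wfs1*, *Plk5*, *Isl1* and *Mdga1* between genotypes were named after their values were seen. Alternatives were DESeq2 1.42.0 and its size factors, no filter, a minimum of 10 counts, the transcript-length offset, a replicate block, all 20 samples in one fit, marker sums as covariates, and each replicate left out.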

Additional observations from a re-analysis of the deposited data

Results flagged for a closer look

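In groups of 5 libraries, Dixon's test at the 95% level, which chance passes in about 1 of 20 groups, marked 6 of 48 groups examined. *Bcl11b* in miR-324-null neocortex was lowest in replicate 5, at 54.8 CPM against 71.6 to 76.1 CPM in the others. *Tbr1* in the same group was highest in replicate 5, at 178.8 CPM against 124 to 127 CPM. *Foxp2* in WT hippocampus was highest in replicate 5, at 10.5 CPM against 2.99 to 4.65 CPM. The summed TPM of the choroid plexus genes was highest in replicate 3 of WT hippocampus (6940), replicate 5 of miR-324-null hippocampus (6002) and replicate 2 of miR-324-null neocortex (1284). Without these 3 choroid plexus libraries, an alternative added after the data were seen, the same numbers of layer markers were called in all 5 comparisons.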

How the results depend on the processing

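Between tissues 7 of 9 layer markers were called under each alternative, other than the 8 called in miR-324-null mice without hippocampal replicate 4 or neocortical replicate 5, and no called gene changed sign. Between genotypes calls depended on the tool and on 1 library: in the neocortex DESeq2 called 2 layer markers, and leaving out replicates gave 0 to 3, with 3 without miR-324-null replicate 5. The difference of genotype effects gave 0 to 1. Over all genes, the neocortical count of 47 became 240 with DESeq2, 26 with at least 10 counts, 30 with the length offset, 13 with the striatal and 17 with the hippocampal covariate, and 27 to 566 with a replicate left out. The hippocampal count of 17 became 139 with DESeq2, 83 with all 20 samples in one fit, 9 with at least 10 counts, and 10 to 31 with a replicate left out. The count of 3 for the difference of genotype effects became 6 with DESeq2, 1 with the length offset, 1 without the choroid plexus libraries, and 1 to 20 with a replicate left out. The causes were not tested.

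Replicate numbers are shared by the groups, but the labels do not say what a number marks. Same-numbered samples correlated at -0.172 to 0.177 over the comparisons of 2 groups, and at 0.0165 to 0.177 between the tissues of miR-324-null mice, where 3 of 5 correlated best with their own number. In no comparison was every pair over 0.1, so the numbers were not taken as pairs, and whether both tissues came from the same mice is not known. With the number as a replicate block the genes called between genotypes were 30 in the neocortex and 4 in the hippocampus. For the difference of genotype effects 0 were called, and no call of a layer marker changed.

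Signs that turned belonged to differences that were not called. With the length offset *Foxp2* turned to 0.15 between genotypes in the hippocampus and *Cux2* to 0.069 for the difference of genotype effects. Covariates turned neocortical values: the striatal one *Fezf2* to 0.17 and *Tbr1* to 0.015, and the hippocampal one *Cux1* to 0.016, *Lamp5* to 0.099 and *Tbr1* to 0.12. Without the choroid plexus libraries *Lamp5* turned to -0.009 between genotypes in the hippocampus and *Tbr1* to 0.047 for the difference of genotype effects. Leaving out 1 replicate moved *Fezf2* between tissues in WT mice from -0.034 to 0.19. Between genotypes in the hippocampus it moved *Lamp5* from -0.084 to 0.088, *Tle4* from -0.082 to 0.031 and *Tbr1* from -0.21 to 0.040. In the neocortex *Cux1* moved from -0.079 to 0.067. For the difference of genotype effects *Cux2* moved from -0.24 to 0.080 and *Tbr1* from -0.17 to 0.096.

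An exact permutation test of TPM shares gave an unadjusted p under 0.05 in 13 of the 97 tests, with no count over all transcripts to set beside it. On linear TPM 1 gene, *Bcl11b*, passed against the striatal sum by r (adjusted permutation p = 0.0426), and r of *Tle4* turned to 0.00266. Against the mean log2 TPM of the striatal genes *Bcl11b* passed by rho (adjusted permutation p = 0.00558) but not by r (0.0788). Depth limits *Foxp2* most, with 31 to 139 estimated counts in hippocampal libraries.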
